A study of Mus musculus with 6 samples.

Results

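The genes described here are the core of the cell cycle engine: cyclins, cyclin-dependent kinases (CDKs), CDK inhibitors, the retinoblastoma (Rb) family, the E2F transcription factors and the proteins that act directly on them. The 41 members were taken by gene symbol, matched to NCBI gene identifiers, out of 18446 genes in the deposited table, and all 41 were found. RNA was sequenced from naive CD4+ T cells, that is, helper T cells before their first antigen. The cells came from spleen and lymph nodes of C57BL/6 mice aged 6 to 8 weeks and were sorted as naive cells, low in CD44. One genotype was wild type (WT). The other is given as Zak-/- in the sample labels and as a deficiency conditional on T cells in the growth protocol, so the kind of deletion, and any Cre driver, are not settled. The gene in question is Map3k20, which codes for Zak, a kinase at the top of stress-activated MAP kinase cascades. Each genotype gave 1 library before stimulation (0 h), 1 after 6 h and 1 after 48 h of anti-CD3 and anti-CD28 antibodies, used in place of antigen and costimulation, so there were 6 libraries and no replicates within a group. Whether the libraries came from single or pooled mice is not given in the sources used here.

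In resting cells the CDKs are held back by inhibitors of the INK4 and Cip/Kip families, and the Rb family (the pocket proteins) binds E2F factors and keeps their target genes silent. Mitogens induce D cyclins, whose kinases CDK4 and CDK6 phosphorylate the pocket proteins, free the E2F factors and so raise cyclin E, cyclin A and the replication genes. Later in the cycle the MuvB core joins with B-Myb (Mybl2) and FoxM1 to switch on the genes of mitosis, while CDC25 phosphatases and the Wee1 kinase set when CDK1 and CDK2 become active. Naive T cells rest outside the cycle for long periods and, once stimulated, grow for many hours before they first divide.

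The deposited unit is FPKM, a fragment count divided by transcript length and by the mapped fragments of the library. Since it is set per transcript length, levels of different genes can be set side by side. FPKM summed to between 496045 and 546113 per library, and the read depth behind these values is unknown. Map3k20 itself did not separate the genotypes at 48 h, with 1.35 FPKM in WT and 1.61 under the label Zak-deficient. Earlier it was near 0, with 0.17 and 0.1 at 0 h and 0.19 and 0.1 at 6 h. Each direction between the genotypes below therefore rests on the label. T cell markers (5 of 6 measured, Cd4 and the CD3 chains among them) summed to between 1492 and 1604 FPKM in every library. B cell markers summed to between 3.54 and 8.22 FPKM, CD8 T cell markers to between 8.88 and 12.8, and NK cell markers to at most 0.6, with all 3 of these at 0 in WT at 48 h. The 8 myeloid markers moved with time, summing to 9.91, 7.78 and 1.26 FPKM at 0, 6 and 48 h in WT and to 8.83, 5.62 and 2.92 under the other label. Of these, 2 passed the filter on low values described below, and both fell by 48 h in the limma fit described there. The part of these cells in the results was not tested. In such bulk samples fewer cells of a type and less RNA per cell cannot be told apart. Exons of Cdk4, Cdk2, Ccna2, Rb1, Rbl2, Ccnd3, Lin37 and Cdc25b, among other members, overlap a gene on the opposite strand, and whether strand was used in counting is not known.

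Differences between 2 libraries were taken as log2(FPKM + 1), a scale that makes changes of low genes look smaller than they are, and the counts below are of genes that lay at least 2-fold apart. Folds given for single genes are on this scale too, and are smaller than the ratio of the FPKM values beside them. The 6 h and 48 h comparisons of a genotype share its 0 h library. Of the 41 members, 39 had a mean of 1 FPKM or more over the 6 libraries and were counted with the 10347 genes that passed this filter. The D cyclin gene Ccnd1 and the INK4 gene Cdkn2b did not pass. A further 6 members (Ccne2, Ccna2, Cdk1, E2f7, E2f8 and Cdc25c) passed only through their 48 h level and so had to differ from it at rest. A fit by limma across the same 10347 genes, with time and genotype as additive terms, gave adjusted p-values (Benjamini-Hochberg). Its only spread is how far the 2 genotypes departed from a common time course, so a p-value measures the time effect against that departure and not against replicate cultures.

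By 48 h of stimulation most of the cell cycle genes stood well above rest. In WT, 24 of the 39 counted members were at least 2-fold higher than at 0 h and 3 were at least 2-fold lower, where 17.8% and 12.3% of all genes were. The same 24 and the same 3 members passed under the label Zak-deficient, where 18.4% and 12.0% of all genes did. The median log2 difference over the 39 counted members was 2.20 in WT and 2.02 under the other label, against 0.00 and 0.06 over all genes. In the limma fit 28 members rose and 7 fell between 0 h and 48 h, out of 39 tested, where 39.0% and 35.2% of all genes did. The risen members in each of these counts, and the medians, include the 6 that passed only through their 48 h level. For those 6 the rise was fixed by the filter.

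At 6 h few members had moved by that much. In WT 3 members were at least 2-fold higher (Ccnd2, Cdk4 and Tfdp1) and 3 lower (Cdkn1b, Cdkn2d and Cdc25b), where 8.93% and 1.39% of all genes were. Under the label Zak-deficient 5 were higher, the same 3 with Cdk6 and E2f6, and 2 were lower, Cdkn1b and Cdc25b, against 9.08% and 1.52% of all genes. Some members lay on either side of the 2-fold line by little: Cdk6 was 1.96-fold higher in WT and 2.10-fold under the other label, and Cdkn2d 2.24-fold and 1.95-fold lower. In the limma fit, where smaller changes pass, 12 members rose and 15 fell by 6 h, against 26.3% and 30.4% of all genes. The count of lower members depended on the settings: a pseudocount of 0.1 FPKM gave 8 in WT and 6 under the other label, and upper quartile scaling of the libraries gave 5 and 4. Common sum scaling gave 5 in WT. The share of all genes under these settings is not given here, so these counts have no background beside them.

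Most of the rise came after 6 h. In that interval 23 members were at least 2-fold higher and 2 lower (Cdkn1b and E2f5) in WT, where 9.32% and 6.14% of all genes were. The label Zak-deficient also had 23 and 2, with 22 and 2 of them shared, against 10.8% and 6.55% of all genes. In the limma fit 31 members rose and 3 fell (29.8% and 30.0% of all genes). The risen members here again include the 6 that passed only through their 48 h level.

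Promoter sequence was looked at because many members moved together at 48 h. RefSeq starts (GRCm38.p6, the same assembly as mm10) were at hand for 30 of the 41 members, and the 250 bases before each start were searched on both strands. The E2F site was spelled TTTCCCGC, TTTCGCGC, TTTGCCGC or TTTGGCGC, the cell cycle homology region (CHR), which MuvB binds, TTTGAA or TTCGAA, and the CCAAT box, bound by NF-Y, CCAAT; none of these words holds another. For 12 of the 30 members, E2f1 and Mybl2 included, every window overlaps the annotated gene, at a start downstream of its first one. The 250 bases upstream of these genes were thus not searched in full, and may not have been searched at all. An E2F site was found in 8 of the 30 members (26.7%), against 2.16% of the 27025 genes in the table and 3.15% of the 14434 of them measured here. A CHR was found in 10 (33.3%, against 19.6% of the genes in the table and 16.3% of those measured here). A CCAAT box was found in 17 (56.7%, against 37.5% and 40.1%). Of the 18 members with a window that lay 2-fold or more above rest at 48 h in WT, 6 held an E2F site (33.3%), against 6.68% of 1482 genes of that kind. These 18 include Cdk1, E2f7 and E2f8, whose rise was fixed by the filter. Cdk1 and E2f7 are among the 6 with an E2F site, so this share is no support for a link between site and rise. Of the 9 members with a window that were within 2-fold, 2 held one (22.2%), against 3.95% of such genes. A CCAAT box was found in 55.6% of those 18 members and in 66.7% of those 9, against 45.4% and 40.5% of all such genes. A match is a description of the sequence and not a measured site.

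Windows are shown for the members with the strongest 48 h rise and fall in WT among those with a window outside the gene body, 5′ to 3′ in the direction of the gene, with capitals for E2F, CHR and CCAAT words. Cdk1 lies at chr10:69352913-69353162 (minus strand), Cks1b at chr3:89418292-89418541 (minus), Cdkn1b at chr6:134920151-134920400 (plus) and Rbl2 at chr8:91069807-91070056 (plus).
Cdk1: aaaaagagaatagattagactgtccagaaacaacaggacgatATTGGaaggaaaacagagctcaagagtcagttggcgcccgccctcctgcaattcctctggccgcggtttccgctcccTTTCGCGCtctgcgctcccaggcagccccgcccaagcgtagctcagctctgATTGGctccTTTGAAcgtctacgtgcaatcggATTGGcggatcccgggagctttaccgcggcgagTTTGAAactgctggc
Cks1b: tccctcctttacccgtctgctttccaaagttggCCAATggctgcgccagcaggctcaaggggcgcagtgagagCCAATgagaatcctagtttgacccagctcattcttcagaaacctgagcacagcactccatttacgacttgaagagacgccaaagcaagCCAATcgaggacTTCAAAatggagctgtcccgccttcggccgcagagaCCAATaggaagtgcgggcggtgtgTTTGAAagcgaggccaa
Cdkn1b: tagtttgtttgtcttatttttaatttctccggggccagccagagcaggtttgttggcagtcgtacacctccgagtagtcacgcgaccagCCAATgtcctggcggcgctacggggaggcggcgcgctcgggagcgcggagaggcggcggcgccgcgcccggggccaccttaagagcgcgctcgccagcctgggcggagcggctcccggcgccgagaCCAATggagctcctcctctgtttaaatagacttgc
Rbl2: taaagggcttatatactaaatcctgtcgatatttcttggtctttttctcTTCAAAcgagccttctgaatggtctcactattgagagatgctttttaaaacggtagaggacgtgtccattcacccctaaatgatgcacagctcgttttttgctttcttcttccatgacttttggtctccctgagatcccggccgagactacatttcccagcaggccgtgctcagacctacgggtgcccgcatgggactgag
The window of Cdk1 holds 1 E2F site (TTTCGCGC), 2 CHR words and 3 CCAAT boxes, the nearest CHR beginning 15 bases before the start. That of Cks1b holds 2 CHR words and 4 CCAAT boxes and no E2F word as spelled here. These 2 genes were 36.9-fold and 20.5-fold higher at 48 h in WT. Of the genes that fell, Cdkn1b has 2 CCAAT boxes and neither other word, and Rbl2 has 1 CHR word, 201 bases before the start.

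**Figure D1:**
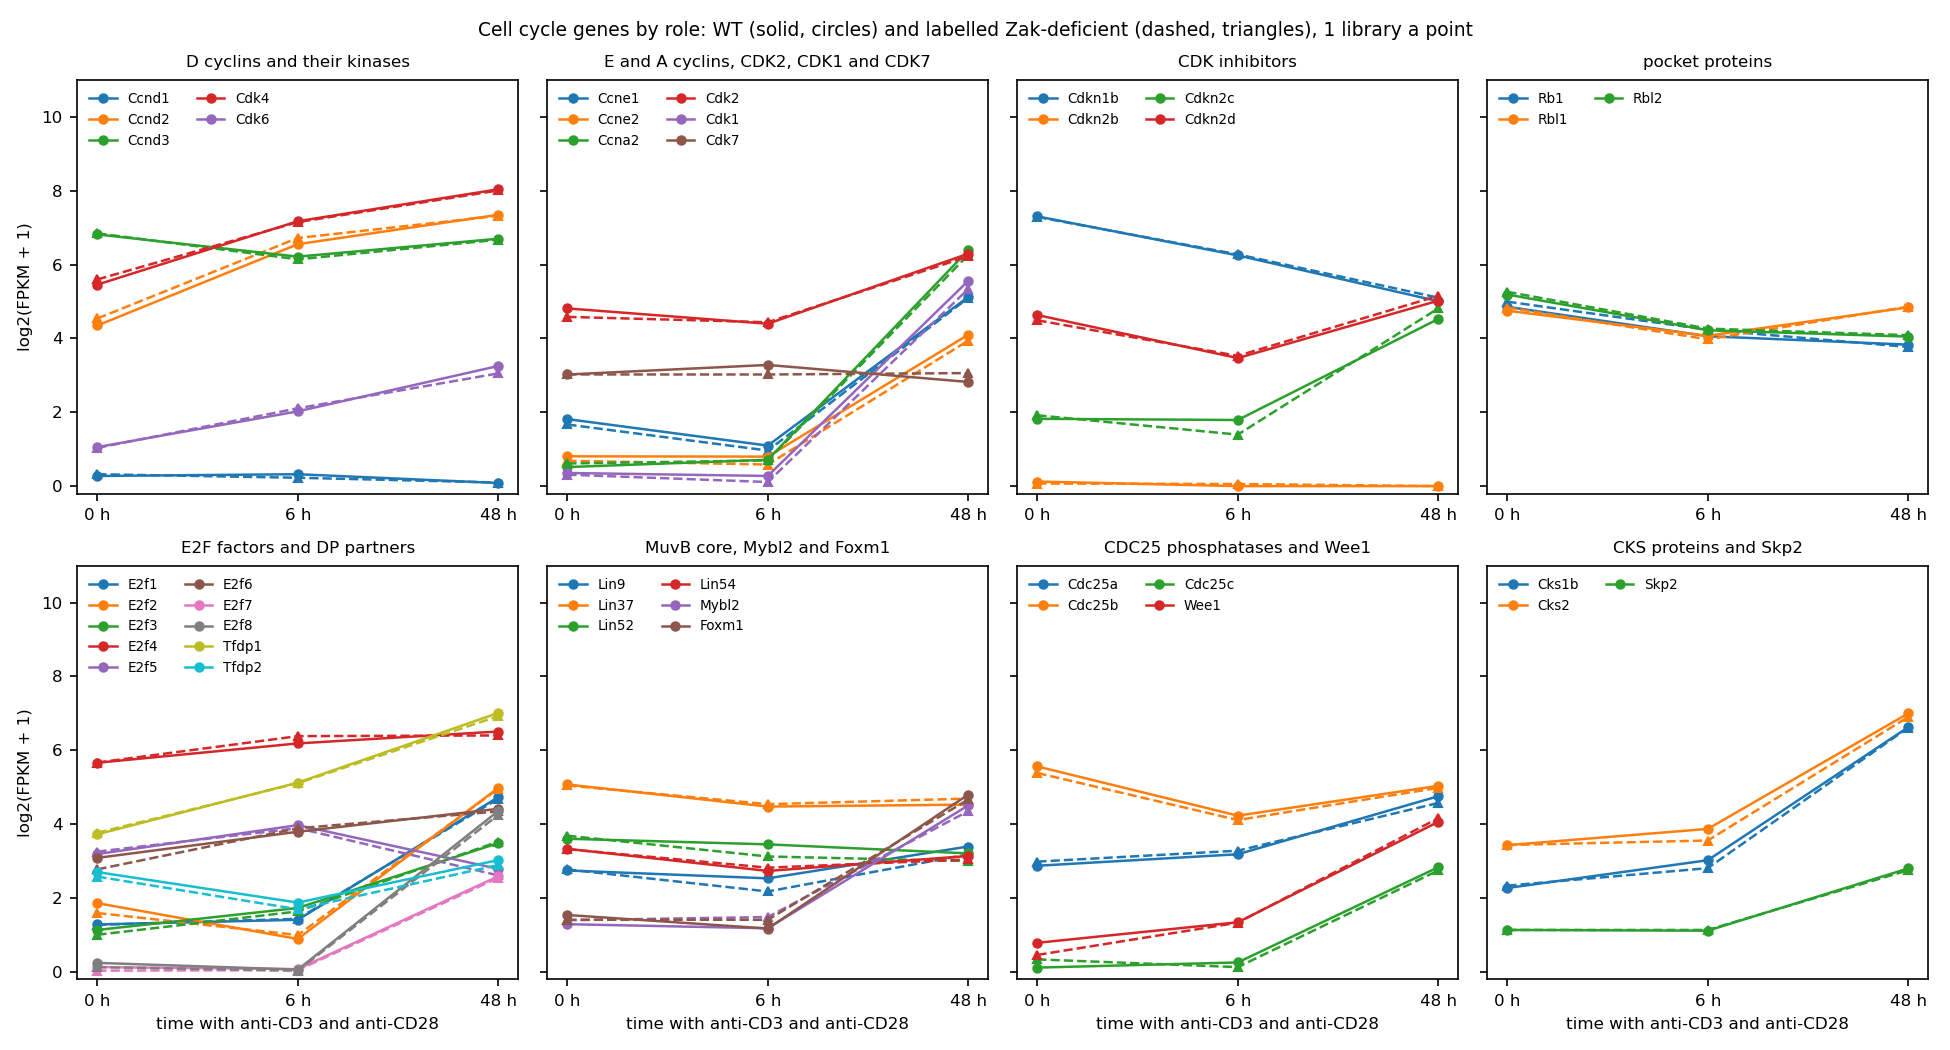
Levels of the 41 members by role, as log2(FPKM + 1) against time (0, 6 and 48 h, evenly spaced), with WT as solid lines with circles and the libraries labelled Zak-deficient as dashed lines with triangles; each point is 1 library. Ccnd2 and Cdk4 climb by 6 h, while Ccnd3 falls. Cyclin E, cyclin A, Cdk1 and E2f1 climb only between 6 and 48 h, and Cdkn1b falls throughout.

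Among the D cyclins and their kinases, Ccnd2 and Cdk4 were already at least 2-fold above rest at 6 h in both genotypes. Ccnd2 (chromosome 6, 127125162 to 127152188, mm10), which encodes cyclin D2, stood at 19.4 FPKM at 0 h, 92.9 at 6 h and 162.1 at 48 h in WT, and at 22.3, 104.5 and 158.9 under the label Zak-deficient. Most of its rise was thus present at 6 h in both genotypes (limma log2 change 2.19 ± 0.08 SE, adjusted p = 1.12e-05). Cdk4, the main kinase partner of D cyclins here, stood at 43.0, 143.5 and 262.1 FPKM in WT and at 47.4, 141.1 and 256.3 under the other label. Cdk6, the second such kinase, was far lower, at 1.08, 3.07 and 8.54 FPKM in WT and 1.05, 3.31 and 7.3 under the other label. It made up between 2.09% and 3.16% of the summed Cdk4 and Cdk6 level in every library.

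Ccnd3, the cyclin D3 gene, took another course. It was the main D cyclin at rest, with 111.8 FPKM in WT and 114.2 under the label Zak-deficient, went down to 73.3 and 69.7 at 6 h and was back at 103.0 and 101.1 at 48 h. The 6 h fall passed in the limma fit (log2 change -0.65 ± 0.07 SE, adjusted p = 0.000522), while the 48 h level did not differ from rest beyond the spread (-0.15, limma adjusted p = 0.0968). Ccnd1, the cyclin D1 gene, in use in many other tissues, stayed between 0.06 and 0.25 FPKM in all 6 libraries. The make-up of the D cyclin pool differed accordingly. Ccnd3 made up 85.1% of the summed level at 0 h in WT and 38.8% at 48 h, and Ccnd2 14.8% and 61.1%. Under the other label Ccnd2 went from 16.3% to 61.1%.

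The cyclins and kinases of S phase and mitosis came later. Ccna2 (chromosome 3, 36564865 to 36573038), which encodes cyclin A2, stood at 0.43 FPKM at 0 h and 0.64 at 6 h in WT, and at 82.7 at 48 h; the other label had 0.53, 0.62 and 75.8. Cdk1, the mitotic kinase, stood at 0.28, 0.21 and 46.2 FPKM in WT and at 0.24, 0.08 and 39.5 under the other label. The 4 libraries of 0 and 6 h were thus all below 1 FPKM for both genes, and both 48 h libraries were far above. On the log2(FPKM + 1) scale Ccna2 had the highest 48 h fold of the members in each genotype, 58.5-fold in WT and 50.2-fold under the other label, and Cdk1 followed with 36.9-fold and 32.7-fold. These sizes depend on the added 1 FPKM, since both genes were near 0 at rest. The Cdk1 promoter window printed above is the one with an E2F word and 2 CHR words.

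The cyclin E genes Ccne1 and Ccne2 encode partners of CDK2 at the start of S phase. On the log2(FPKM + 1) scale both were between 9.53-fold and 10.7-fold higher at 48 h than at rest. Ccne1 first went down, from 2.52 FPKM at 0 h to 1.14 at 6 h in WT and from 2.18 to 0.95 under the other label, before it reached 33.9 and 33.2. That 6 h fall passed in the limma fit (log2 change -0.71 ± 0.10 SE, adjusted p = 0.00165). Ccne2 stood at 0.75, 0.74 and 16.2 FPKM in WT and at 0.61, 0.5 and 14.4 under the other label. Cdk2 was already well expressed at rest, unlike Cdk1, with 27.1, 20.1 and 77.5 FPKM in WT and 23.0, 20.7 and 73.7 under the other label. Cdk7, the kinase that activates other CDKs and also serves transcription, stayed between 6.07 and 8.73 FPKM in all libraries and passed in no time comparison of the limma fit.

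Of the CDK inhibitors, Cdkn1b (chromosome 6, 134920401 to 134925525), which encodes p27 and is a hallmark of quiescent lymphocytes, fell in steps. It stood at 157.3 FPKM at 0 h, 75.1 at 6 h and 31.2 at 48 h in WT, and at 155.5, 76.5 and 33.4 under the label Zak-deficient. It was the only member at least 2-fold lower in all 3 time comparisons of both genotypes (limma 0 h to 48 h, log2 change -2.24 ± 0.07 SE, adjusted p = 2.11e-06). For each FPKM of Cdk1 and Cdk2 together there were 5.74 FPKM of Cdkn1b at 0 h in WT, 3.7 at 6 h and 0.252 at 48 h. The other label had 6.7, 3.68 and 0.295. This ratio leaves out Cdkn1a, another Cip/Kip gene, which is not a member and went the other way. Cdkn1a stood at 1.07, 17.7 and 59.0 FPKM in WT and at 1.47, 15.65 and 65.2 under the other label.

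The INK4 inhibitors, which bind CDK4 and CDK6, stood above rest at 48 h where they passed the filter, unlike Cdkn1b. Cdkn2d stood at 23.8 FPKM at 0 h, 10.1 at 6 h and 31.5 at 48 h in WT, and at 21.5, 10.5 and 34.6 under the other label, so that it was lowest at 6 h and highest at 48 h in both genotypes. Cdkn2c stood at 2.54, 2.46 and 22.0 FPKM in WT and at 2.78, 1.63 and 27.1 under the other label. At 48 h it was 6.51-fold and 7.44-fold higher than at rest (limma log2 change 2.80 ± 0.17 SE, adjusted p = 2.2e-05), and its share of the summed INK4 level was 9.6% at 0 h and 41.2% at 48 h in WT. Cdkn2b stayed between 0 and 0.09 FPKM and was listed at 0 in 3 libraries.

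The 3 pocket protein genes parted ways after a common fall at 6 h. Rb1, Rbl1 (p107) and Rbl2 (p130, the pocket protein of resting cells) stood at 28.0, 25.9 and 35.5 FPKM at 0 h in WT, and at 15.7, 15.8 and 17.7 at 6 h. The label Zak-deficient had 30.9, 27.6 and 37.4 at 0 h and 17.8, 14.7 and 18.2 at 6 h. By 48 h Rb1 stood at 13.2 FPKM in WT and 12.6 under the other label, and Rbl2 at 15.6 and 16.01, each at least 2-fold below rest. Rbl1 had returned to 27.7 and 28.1 FPKM, near its level at rest (limma 6 h to 48 h, log2 change 0.83 ± 0.08 SE, adjusted p = 0.000347). It made up 49.0% of the pocket protein sum at 48 h in WT, against 29.0% at 0 h.

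Of the E2F factors, the activators E2f1, E2f2 and E2f3 were low at rest and high at 48 h. E2f1 (chromosome 2, 154559400 to 154569892) stood at 1.43, 1.65 and 25.5 FPKM in WT and at 1.41, 1.7 and 24.7 under the other label. E2f2 stood at 2.62, 0.85 and 30.5 FPKM in WT and at 2.01, 0.99 and 30.0 under the other label, with its lowest level at 6 h. E2f3 had 1.19, 2.31 and 10.2 FPKM in WT and 1, 2.1 and 10.5 under the other label, and had already risen at 6 h (limma log2 change 0.61 ± 0.11 SE, adjusted p = 0.0048).

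E2f4, which acts mainly as a repressor with the pocket proteins, was the most abundant E2F factor in every library. It stood at 49.5, 71.7 and 89.9 FPKM in WT and at 49.8, 82.3 and 83.4 under the other label. E2f5, its close relative, was highest at 6 h, with 8.1, 14.7 and 5.9 FPKM in WT and 8.53, 13.8 and 5.1 under the other label, and was at least 2-fold lower at 48 h than at 6 h in both. E2f6, a repressor that needs no pocket protein, rose at 6 h and again by 48 h, from 7.47 to 12.8 and 20.3 FPKM in WT and from 5.83 to 13.8 and 19.3 under the other label.

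The atypical repressors E2f7 and E2f8, which damp E2F target genes late in S phase, were near 0 until 48 h. E2f8 stood at 0.18, 0.04 and 19.4 FPKM in WT and at 0.09, 0.02 and 17.97 under the other label, and E2f7 reached 5 and 4.83 at 48 h. The make-up of the E2F pool was then another. E2f4 to E2f6 held 92.2% of the summed E2F level at 0 h in WT, 95.3% at 6 h and 56.2% at 48 h, and the activators 7.42%, 4.62% and 32.0%. Under the other label the activators held 6.44%, 4.18% and 33.3%.

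Of the DP proteins, the partners without which E2F1 to E2F6 do not bind DNA, Tfdp1 rose at each step. It stood at 12.2, 33.8 and 127.7 FPKM in WT and at 12.6, 33.4 and 120.2 under the other label, and was the only member at least 2-fold higher in all 3 time comparisons of both genotypes. Of its transcript sequence 21.7% of 31-base words also occur in transcripts of other genes, mainly Gm7390, so its level is uncertain. Tfdp2 was lowest at 6 h, with 5.49, 2.66 and 7.13 FPKM in WT and 4.96, 2.23 and 6.4 under the other label.

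**Figure D2:**
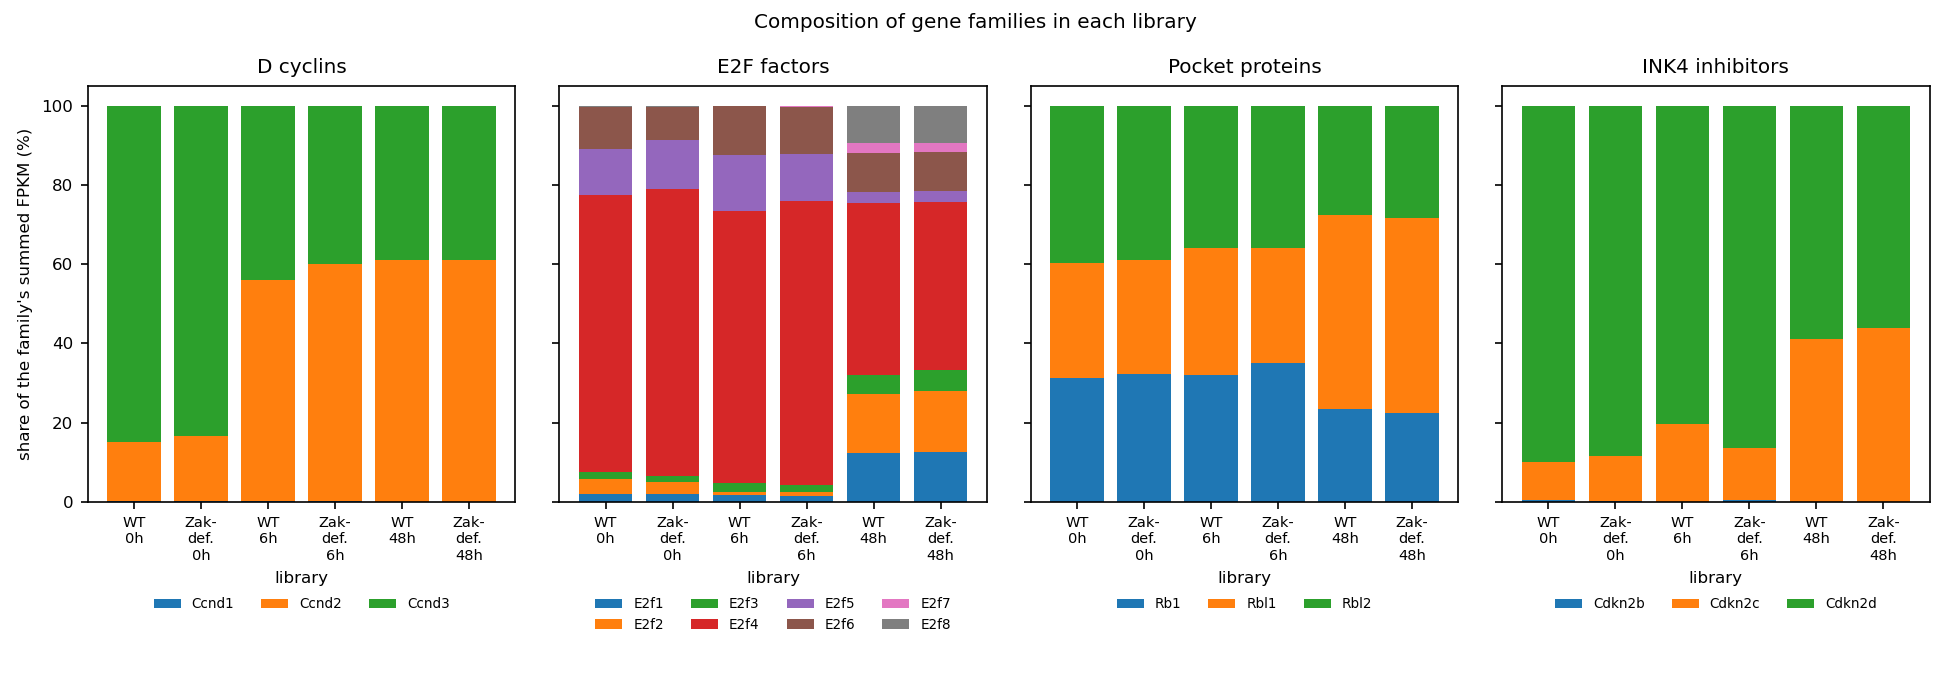
Share of each family's summed FPKM held by each gene (percent, vertical axis) in the 6 libraries, for D cyclins, E2F factors, pocket proteins and INK4 inhibitors; 1 library a bar, 2 genotypes at each time. Ccnd2 goes from 14.8% to 61.1% of the D cyclins in WT and E2f4 from 70.1% to 43.5% of the E2F factors, and bars of the same time look alike.

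The MuvB core moved little, in contrast to the factors that join it. Lin9, Lin37, Lin52 and Lin54 had no member 2-fold apart between 0 h and 48 h or 0 h and 6 h in either genotype. Lin37, needed for repression by the DREAM complex, stood at 32.6, 21.2 and 22.0 FPKM in WT and at 32.0, 22.2 and 24.8 under the other label, with 13.8% of its 31-base words shared with other genes. All 4 fell at 6 h in the limma fit, with log2 changes between -0.55 and -0.36 and adjusted p-values between 0.00203 and 0.0443. By 48 h Lin9 was above rest (log2 change 0.53 ± 0.12 SE, limma adjusted p = 0.00771) and Lin37 and Lin52 were below it. Mybl2, which takes over MuvB from the repressive complex, stood at 1.44, 1.26 and 21.7 FPKM in WT and at 1.63, 1.79 and 19.4 under the other label. Foxm1, which follows it in G2, stood at 1.9, 1.25 and 26.8 FPKM in WT and at 1.65, 1.65 and 24.4 under the other label.

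The phosphatases and kinase that gate CDK1 and CDK2 differed in time. Cdc25b, of the phosphatase family that removes the inhibitory phosphates, was high at rest with 46.2 FPKM in WT and 40.7 under the other label, fell to 17.7 and 16.3 at 6 h and stood at 31.8 and 30.6 at 48 h. Its 6 h fall was 2.52-fold in WT and 2.42-fold under the other label. Cdc25a, which acts at the entry to S phase, went from 6.31 and 8.07 to 25.96 FPKM in WT and from 6.9 and 8.7 to 22.8 under the other label. Cdc25c stood between 0.08 and 0.26 FPKM in the 4 libraries of 0 and 6 h and at 6.11 and 5.69 at 48 h. Wee1, the kinase that adds the inhibitory phosphate, was at 0.72, 1.53 and 15.7 FPKM in WT and at 0.37, 1.51 and 16.8 under the other label.

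Cks1b and Cks2 encode small proteins that dock on CDKs, and Skp2 the ubiquitin ligase subunit that marks p27 for destruction together with Cks1. Cks1b stood at 3.81, 7.11 and 97.5 FPKM in WT and at 4.03, 5.99 and 96.7 under the other label. Cks2 stood at 9.76, 13.6 and 126.7 FPKM in WT and at 9.79, 10.7 and 118.3 under the other label. Both have near copies elsewhere in the transcriptome (17.3% and 31.7% of 31-base words shared), as does Mybl2 (21.0%), so their levels are uncertain. Skp2 was low, at 1.19, 1.16 and 5.95 FPKM in WT and 1.19, 1.19 and 5.72 under the other label. At 6 h it lay within the spread of its resting level (limma log2 change -0.01 ± 0.12 SE, adjusted p = 0.948), while the Cdkn1b transcript was already 2.08-fold lower in WT and 2.02-fold under the other label. Protein was not measured, and destruction of p27 was not tested.

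**Figure D3:**
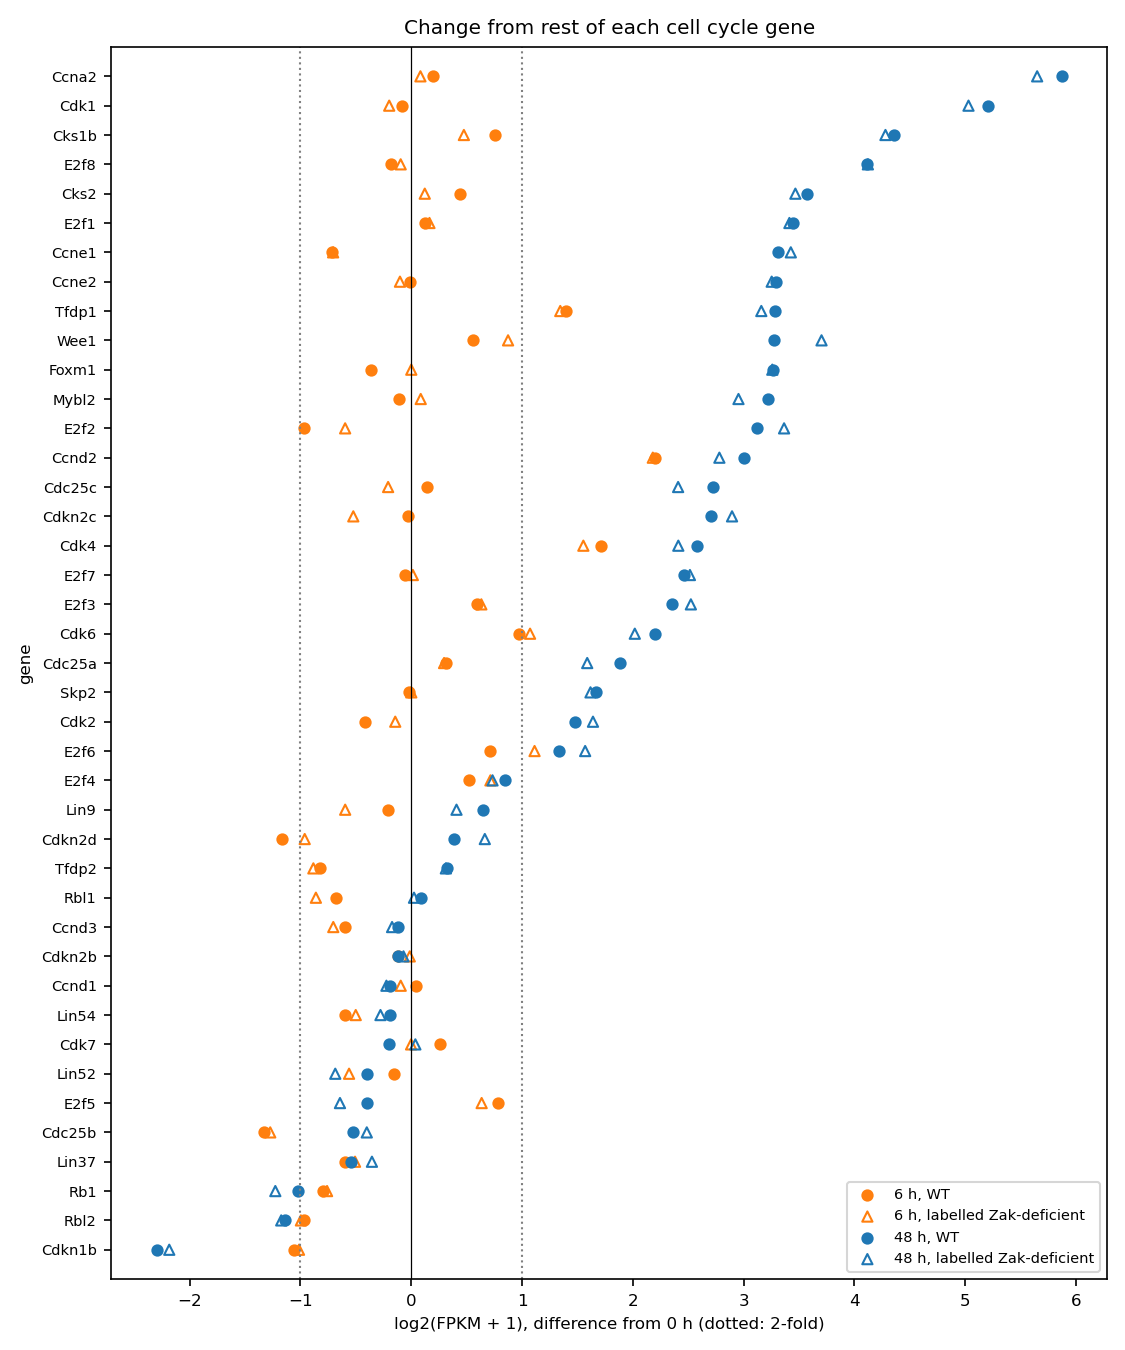
Change of each member from its own 0 h library on the log2(FPKM + 1) scale (horizontal axis), at 6 h (orange) and 48 h (blue), WT as filled circles and the libraries labelled Zak-deficient as open triangles; dotted lines mark 2-fold. Ccna2 lies highest at 48 h (5.87 in WT) and Cdkn1b lowest (-2.30 in WT), and only a few orange points pass the dotted lines.

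A dip at 6 h was a common shape. In both genotypes 15 of the 39 counted members were lower at 6 h than at 0 h and higher again at 48 h, where 17.2% of all genes were. A difference of any size was counted here. Of these members, 11 ended above their resting level by any amount in both genotypes (9.68% of all genes), among them Ccne1, Cdk2, Cdkn2d, E2f2 and Tfdp2. Rbl1 is also counted, though it ended near rest (log2 difference 0.09 in WT and 0.02 under the other label). For Cdk1, Ccne2 and E2f8 the dip lay between values under 1 FPKM, and their end above rest was fixed by the filter. Without the 6 members that passed only through 48 h, 12 of 33 dipped and 8 of these ended above rest. With other scalings of the libraries the number of members with a dip was between 15 and 17 of 39. Both genotypes had the same 2-fold calls in all 3 time comparisons in 35 of the 39 members and in 83.5% of all genes. The largest group, 19 members, was within 2-fold at 6 h and at least 2-fold higher at 48 h than at both earlier times in both genotypes (6.0% of all genes). Without those 6 members it held 13 of 33.

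Other cell cycle genes that are not members gave a reference. Of 30 E2F-linked S phase genes, 25 lay 2-fold or more above rest at 48 h in WT and 0 below it (median log2 difference 2.34), with Uhrf1 and Rrm2 in front. Of 30 MuvB-linked genes of G2 and mitosis, 29 were higher and 0 lower (4.17), and the exception, named after its value was seen, was Cenpa. At 6 h these lists had medians of -0.09 and -0.11, and the members -0.05, against -0.06 for all genes. In the S phase list 3 genes passed the 2-fold line upward at 6 h in WT, Cdca7 (8.32-fold), Pcna and Rbbp7, and of these Cdca7 alone under the other label. Of all genes, 8.93% did so in WT and 9.08% under the other label. Of 20 other cyclin and CDK genes that passed the filter, 6 were higher and 2 lower at 48 h in WT, with Ccnb1, the mitotic cyclin B1 gene, at 0.4 FPKM at 0 h and 51.6 at 48 h. The lower ones were Ccng2, a cyclin of resting cells, at 69.2 FPKM at 0 h and 22.6 at 48 h, and Cdk16, at 33.4 and 15.5. Of 27 genes of the ubiquitin ligases that act on CDK substrates, 7 were higher and 0 lower at 48 h in WT. Of all genes, 17.8% were higher and 12.3% lower in this comparison. The last 2 lists lay nearer to these shares than the S phase and MuvB-linked lists did. In WT at 48 h the listed subunits of the anaphase-promoting complex were within 2-fold of rest, while its partner genes Cdc20 (2.61 to 62.5 FPKM) and Ube2c (5.51 to 131.6) were not.

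The genotypes as labelled differed little in these genes. At 0 h, 6 h and 48 h, 0 of the 41 members were 2-fold apart between the library labelled Zak-deficient and WT, where 0.271%, 0.242% and 2.23% of all genes were. On the log2(FPKM + 1) scale the member farthest apart at 0 h was Wee1 (0.37 against 0.72 FPKM), and at 6 h Cdkn2c (1.63 against 2.46 FPKM, 1.32-fold lower). At 48 h it was again Cdkn2c, now higher under the label Zak-deficient (27.1 against 22.0 FPKM, 1.22-fold). In the limma fit over all 3 times 0 of 39 members passed for the label and 0 had an unadjusted p under 0.05, and 3 of 10347 genes passed (0.029%). The log2 differences lay between -0.18 (Lin9) and 0.11 (Ccnd2). Their 95% intervals reached down to -0.42 (Lin9, 1.34-fold lower) and up to 0.36 (Mybl2, 1.28-fold higher), so differences of up to that size are within the intervals.

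At 48 h the small differences leaned to one side. Of the 39 counted members, 30 were lower in the library labelled Zak-deficient (median log2 difference -0.06), against 53.9% of all genes (median -0.01). Cdk1 stood at 39.5 against 46.2 FPKM, Cdk6 at 7.3 against 8.54, Mybl2 at 19.4 against 21.7 and Cdc25a at 22.75 against 25.96. The 9 members that went the other way were of several roles. All 3 counted inhibitors were among them: Cdkn1b stood at 33.4 against 31.2 FPKM, Cdkn2c at 27.1 against 22.0 and Cdkn2d at 34.6 against 31.5. The others were Cdk7 (7.35 against 6.07 FPKM), Wee1 (16.8 against 15.7), Lin37 (24.8 against 22.0), E2f3, Rbl1 and Rbl2. Of the MuvB-linked genes of G2 and mitosis 29 of 30 were lower (median -0.12), and of the E2F-linked S phase genes 18 of 30 (-0.02). At 0 h 19 members were lower and at 6 h 22, where 51.9% and 53.1% of all genes were. With 1 library a genotype, none of these has a replicate check. Median ratio scaling moved the median of all genes at 48 h to -0.17 and that of the members to -0.22, with 37 members and 84.5% of all genes lower; relative to all genes the members then lay at -0.05, as without rescaling. That scaling shifts all genes of a comparison together, and with it the differences of Cdkn1b and Cdkn2d lay below 0 and that of Cdkn2c above it.

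**Figure D4:**
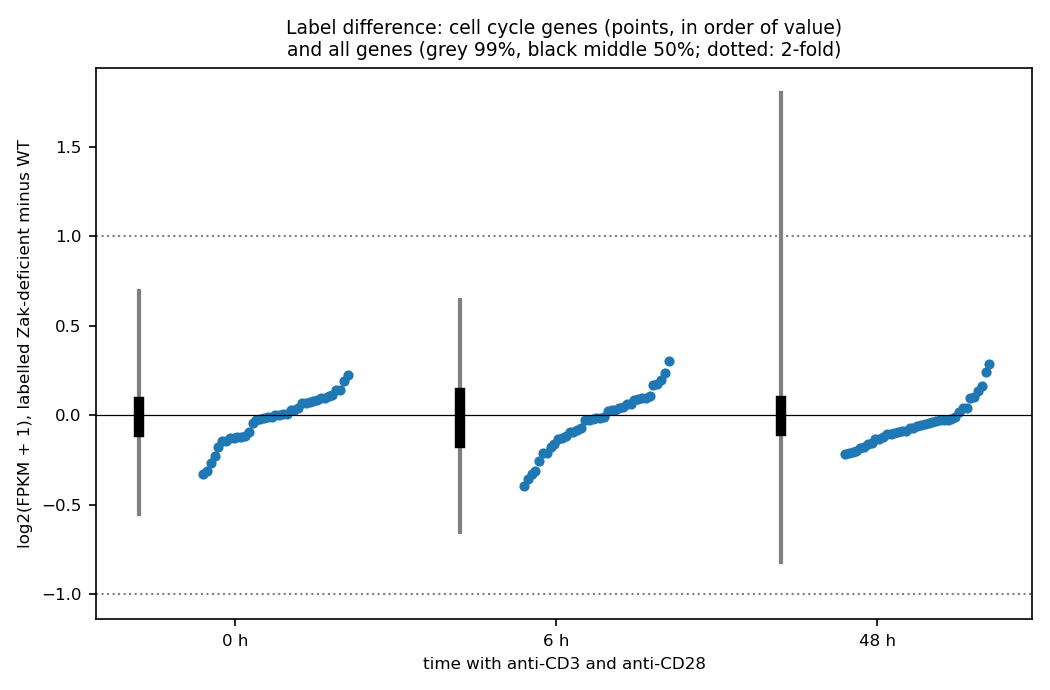
Difference between the library labelled Zak-deficient and WT at 0, 6 and 48 h on the log2(FPKM + 1) scale (vertical axis), with the 39 counted members as points in order of value beside bars for all 10347 genes (grey, central 99%; black, middle 50%); dotted lines mark 2-fold. No member reaches a dotted line, and at 48 h 30 of the 39 points lie below 0.

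The response to stimulation was close in the genotypes. The difference of the 48 h responses (labelled Zak-deficient minus WT) lay between -0.31 and 0.43 log2 units over the 41 members, with a median of -0.04 and 0.01 over all genes. At 6 h the difference lay between -0.49 (Cdkn2c) and 0.40 (E2f6). In neither case did a member reach 1 log2 unit, where 1.78% and 0.58% of all genes did. Across the 41 members the 48 h responses of the genotypes correlated at 0.995 (Pearson's r) and the 6 h responses at 0.961. The members are not independent replicates and low genes share the pseudocount.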

How the data were processed

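The deposited values are FPKM for each gene in the 6 libraries, made by the authors with Bowtie and RSEM on mm10 according to the submitters' processing notes. Their versions, settings, strand mode and filters are not stated in those sources. Of 18446 genes, 18326 had a symbol in the RefSeq table. Libraries were grouped by their titles. Differences were taken on log2(FPKM + 1) without rescaling, over 10347 genes of mean 1 FPKM or more, and a 2-fold difference was counted. limma 3.58.1 (R 4.3.3) fitted time and genotype as additive terms to all 6 libraries with a variance trend (2 residual and 4.12 prior degrees of freedom), with adjusted p under 0.05 as threshold. On simulated data, 200 of 200 genes shifted 3-fold at 48 h were recovered by limma with 9 unshifted genes called, of 10347. The simulation gave every gene the same noise, shifted only genes well above the filter and held no other change with time. It does not show how the fit does on low genes or on these data. All members are accounted for; other genes named are markers, Map3k20 and some of the 4 most changed genes in a direction of each list, and Cenpa. Members and lists were chosen with earlier results of these data known. Exon overlaps and shared 31-base words used GENCODE M21; counting without strand could not separate genes that overlap on opposite strands. Alternatives changed the pseudocount, filter, scaling and variance trend and, for the genotype comparisons only, the fold rule. Figures used Python 3.11.15 and matplotlib 3.10.9.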

Additional observations from a re-analysis of the deposited data

How the results depend on the processing

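The alternatives were pseudocounts, filters, scalings, a fit without a trend or without the 48 h libraries and, for the genotype comparisons only, a 1.5-fold rule. Of 198 counts of members recomputed under them, 187 stayed within 1.5 times the reported count, and no member that passed a threshold changed direction. The 11 others are small counts of members near 2-fold, given here without the share of all genes at the same setting. At a pseudocount of 0.1 FPKM, members lower at 6 h numbered 8 in WT and 6 under the label Zak-deficient. At 5 FPKM, 3 were higher and 1 lower at 6 h under that label, 1 was lower at 48 h in WT, and 1 was lower from 6 h to 48 h in each genotype. Members lower at 6 h in WT numbered 5 with a common sum and 5 with upper quartile scaling, and under the other label 1 with median ratio and 4 with upper quartile scaling. Members higher at 48 h numbered between 19 and 24 in each genotype over the pseudocounts, filters and scalings, all at 2-fold. For the label, 0 members passed in the limma fit under every setting, the one without the 48 h libraries included, where the lowest adjusted p of a member was 0.731; over the settings it lay between 0.729 and 0.881. Over all genes, 3 passed for the label in the reported fit, 0 without a filter, 1 without a trend, 6 with a filter at 5 FPKM, 11 with median ratio scaling and 64 without the 48 h libraries; the cause was not tested. The repeats of the 6 h dip and of the label medians under other scalings, and the counts without members that passed only through 48 h, were chosen after seeing the data. No paired analysis was possible because the labels give 1 library per group and no replicate numbers that pair them; the limma fit itself compares the genotypes within each time. Read depth is unknown, so values under about 1 FPKM have no stated precision.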
